A study of Mus musculus with 9 samples.

Results

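The transcripts described here encode 6 subunits of the NMDA receptor: Grin1, Grin2a, Grin2b, Grin2c, Grin2d and Grin3a. They were found in the count table by gene symbol, matched to the Ensembl identifier with its version removed, and are 6 of the 22255 genes listed and 6 of the 14512 genes tested. All 9 samples were RNA of hippocampal synaptoneurosomes from C57Bl/6J mice with the Fmr1 KO genotype, the standard mouse model of fragile X syndrome. Synaptoneurosomes are a fraction of brain homogenate enriched in resealed presynaptic endings with the postsynaptic elements attached to them. The treated group had received AM6545 sub-chronically (n = 4, replicates A, B, C and E), and the control group had received its vehicle (n = 5, replicates A to E). AM6545 is an antagonist of the cannabinoid CB1 receptor that enters the brain poorly, so that it acts mainly on peripheral tissues. Both groups carried the Fmr1 deletion and no wild-type sample was part of the comparison, so the data compare treatments within the knockout. Dose, age and sex were not given in the sources used here, nor whether each sample came from 1 animal. The p-values therefore measure the spread between these samples, part of which may be technical.

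NMDA receptors are ion channels opened by glutamate together with a co-agonist, glycine or D-serine. Magnesium blocks the pore until the membrane is depolarised, and the calcium that then enters starts the signalling that underlies long-term potentiation and depression in the hippocampus. Each receptor is a tetramer that needs GluN1, the product of Grin1, to leave the endoplasmic reticulum. The GluN2 subunits, encoded by Grin2a to Grin2d, bind glutamate and set the kinetics, the magnesium block and the scaffold partners. GluN2A and GluN2B predominate in principal cells of the forebrain, and GluN2D in the hippocampus is best known from interneurons. GluN3A, encoded by Grin3a, binds glycine and lowers calcium permeability. FMRP, the RNA-binding protein lost in Fmr1 KO mice, binds many mRNAs of synaptic proteins, Grin2a and Grin2b among them.

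The kinship of the genes is visible in the 27 bases that encode the conserved motif of the third transmembrane segment, which lines the channel gate. These segments are shown because the motif is shared by subunits with different roles, here the obligatory subunit, 2 of the glutamate-binding subunits and GluN3A. They are printed 5′ to 3′ on the coding strand from the GENCODE M21 transcripts, with capitals at bases unlike Grin1.
Grin1: tcctacactgccaacctggcagccttc
Grin2a: AGTtacacAgccaacctggcTgccttc
Grin2c: AGctacacGgccaaTctggcagccttc
Grin3a: AcAtacacAgcGaacTtggcTgcTGtc
The number of bases unlike Grin1 was 5 in Grin2a, 4 in Grin2c and 8 in Grin3a. On GRCm38 the segments lie on the minus strand, in exon 15 of Grin1 (chr2:25297199-25297225), exon 10 of Grin2a (chr16:9653447-9653473), exon 11 of Grin2c (chr11:115253749-115253775) and exon 3 of Grin3a (chr4:49770470-49770496). Exons were counted from the 5′ end of the transcript that was used.

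Beyond such motifs the subunit transcripts were distinct. Of the runs of 31 bases in the transcripts of each gene, 10.7% in Grin1, 12.1% in Grin2a, 1.01% in Grin2b, 1.38% in Grin2c, 8.65% in Grin2d and 0 in Grin3a also occurred in another gene on either strand. Among the members, only Grin2c shared any such run with Grin2b or Grin2d. The partner with the most shared runs was the antisense gene Grin1os for Grin1 (1016 runs), the gene model Gm7328 for Grin2a (2133) and the antisense gene Gm45441 for Grin2d (557), none of which was analysed here. The strand setting of the counting was not given in the sources used here. Reads that fall in the shared runs of Grin1 and Grin2d therefore cannot be told apart from reads of these antisense partners. How reads of the runs that Grin2a shares with Gm7328 were divided was not analysed here. The coding gene Kdelr1 overlaps Grin2d on the opposite strand, and Ppp3r2 lies within Grin3a on the same strand.

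The library totals ran from 17628922 counts in vehicle A to 27263393 in vehicle B. Fmr1, the targeted gene, was between 9.45 and 11.1 CPM (counts scaled to a common library size) in AM6545 samples and between 10.3 and 13.3 CPM in vehicle samples. Those reads check no genotype, because no wild-type sample was available for comparison and the position of the deletion was not given. Markers of hippocampal principal neurons were abundant in every sample. Slc17a7, the vesicular glutamate transporter of these cells, ran from 907 to 1147 CPM under AM6545 and from 824 to 1060 CPM under vehicle. Prox1, of dentate granule cells, ran from 57.9 to 62.7 CPM and from 53.1 to 63.8 CPM. Glial RNA was present too, with Gfap at 304 to 370 CPM and 255 to 455 CPM. Gabra6, which marks cerebellar granule cells, had at most 1 count in any sample. Ttr, of the choroid plexus, ran from 40.8 to 795 CPM and from 30.9 to 3999 CPM, so choroid plexus RNA varied widely between samples. Summed over each of the other marker lists, the AM6545 and vehicle ranges overlapped: 559 to 660 and 532 to 632 CPM for dentate granule cells, 570 to 641 and 493 to 611 CPM for CA1, 73.4 to 78.8 and 60.5 to 87.4 CPM for oligodendrocyte precursors, and 58.8 to 74.2 and 48.2 to 104 CPM for endothelium. For other regions they were 79.4 to 103 and 94.3 to 108 CPM for cerebellar granule cells, 97.5 to 130.3 and 95.8 to 128 CPM for thalamus, with Tcf7l2 at 6.01 to 12.3 and 8.45 to 11.2 CPM, and 177 to 224 and 201 to 251 CPM for isocortex. The cerebellar sum came mostly from Neurod1, at 813 to 1249 counts per sample, and Calb2, at 738 to 1351. It does not by itself show cerebellar RNA. The choroid plexus and ependymal list ran from 65.7 to 937 and from 52.2 to 4340 CPM. No gene of these lists passed the adjusted threshold. In bulk RNA, fewer cells or synapses of a type and less RNA in each cannot be told apart.

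All of the 6 subunit transcripts had a higher fitted level under AM6545 than under vehicle, and none of the 6 passed the test across all genes. Fold changes come from edgeR's quasi-likelihood test with Benjamini-Hochberg adjustment over the 14512 genes, at a threshold of 0.05, and levels are CPM with library sizes scaled by the trimmed mean of M-values (TMM). At that threshold the background was 0% of genes called, and the lowest adjusted p of any gene was 0.653. DESeq2 and limma-voom also called 0 genes, with 1121 and 870 at an unadjusted p under 0.05 where edgeR had 1047. A log2 fold change above 0 was the case for 48.2% of all genes. At an unadjusted p under 0.05 the member called was Grin1 alone, 1 of 6, where 7.21% of all genes were called in either direction and 3.03% with a higher level under AM6545. In 0 of the 6 members were the CPM ranges of the groups apart, where 1.45% of all genes had ranges that did not overlap. The median log2 fold change of the members was 0.19, beside -0.01 over all genes tested.

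**Figure D1:**
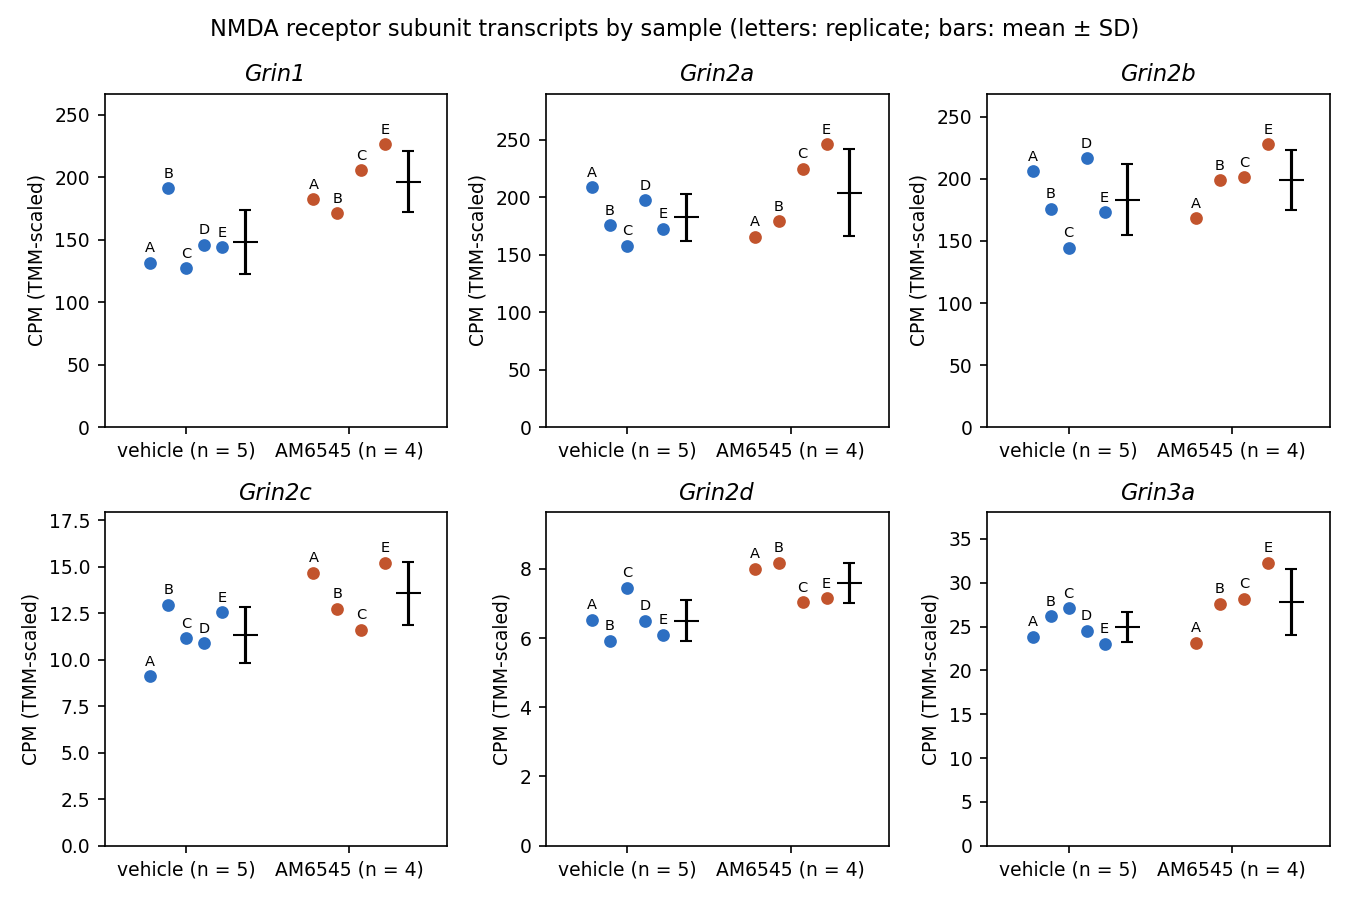
Level of each NMDA receptor subunit transcript in every sample, in TMM-scaled CPM on a linear axis that starts at 0; points are samples with their replicate letter, and black bars give the mean ± SD of the vehicle (n = 5) and AM6545 (n = 4) groups. AM6545 E was the highest sample for 5 of the 6 genes, all but Grin2d, and the groups overlap in every panel.

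Grin1 (ENSMUSG00000026959.14; chr2:25291181-25319187, minus strand, GRCm38) encodes the obligatory subunit and had the largest fitted difference of the 6. Its level was 182, 171, 206 and 226 CPM in AM6545 A, B, C and E. In vehicle A to E it was 132, 191, 127, 146 and 144 CPM. The 4 vehicle samples other than B lay below every AM6545 sample, and vehicle B lay above AM6545 A and B, so the groups overlapped through that sample. The means were 196 ± 24.5 CPM (SD, n = 4) and 148 ± 25.5 CPM (SD, n = 5), which the fit placed 0.41 apart on the log2 scale (SE 0.13, adjusted p = 0.653 by edgeR's quasi-likelihood test). The unadjusted p of that test was 0.00620, and 47 genes had a smaller one. Only 1.82% of the genes tested had a higher log2 fold change. Grin1 is GC-rich, at 59.3%, and with each sample's trends of counts on transcript length and GC content removed the log2 fold change was 0.29 (adjusted p = 0.870 by the same test).

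Vehicle B was the sample whose removal raised the Grin1 difference most. Without it the log2 fold change was 0.52, the highest of 19 alternative settings, and the adjusted p by the edgeR quasi-likelihood test was 0.320. Without AM6545 E it was 0.33. The unadjusted p stayed under 0.05 in 19 of 19 settings, and over these settings the adjusted p ran from 0.320 to 0.920.

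Grin2a (ENSMUSG00000059003.13; chr16:9567898-9995560, minus strand) encodes GluN2A, the subunit of mature synapses with fast decay. It was at 166, 179, 225 and 246 CPM in AM6545 A, B, C and E. The vehicle samples A to E held 209, 176, 158, 197 and 173 CPM. AM6545 C and E were above all vehicle samples, whereas AM6545 A was below 4 of the 5. The means of 204 ± 37.8 CPM (SD, n = 4) and 182 ± 20.4 CPM (SD, n = 5) gave a fitted log2 difference of 0.16 (SE 0.13, adjusted p = 0.718 by edgeR's test), less than the spread between replicates. It was 0.06 without AM6545 E and 0.25 without AM6545 A.

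Grin2b (ENSMUSG00000030209.15; chr6:135713233-136173511, minus strand) encodes GluN2B, which predominates early in development and decays slowly. Its AM6545 samples A, B, C and E held 168, 199, 201 and 228 CPM. Vehicle A to E held 206, 176, 145, 217 and 173 CPM. As for Grin2a, vehicle C was the lowest and AM6545 E the highest of the 9 samples, with the other samples of both groups interleaved. The means were 199 ± 24.3 CPM (SD, n = 4) and 183 ± 28.7 CPM (SD, n = 5), and the fitted log2 difference was 0.12 (SE 0.13, adjusted p = 0.790 by edgeR's test), the smallest of the members. It was 0.04 without vehicle C and 0.19 without AM6545 A.

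The end samples of these 3 abundant subunits were also extremes of the microglial marker list. The summed microglial list (7 genes) was highest in AM6545 E, at 1014 CPM, and lowest in vehicle C, at 574 CPM, the same samples that were at the ends for Grin1, Grin2a and Grin2b. Its range was 760 to 1014 CPM under AM6545 and 574 to 898 CPM under vehicle. The oligodendrocyte list (8 genes) was also lowest in vehicle C, at 10903 CPM, and was 19010 CPM in AM6545 E and 22807 CPM in vehicle A, with ranges of 13253 to 19010 CPM and 10903 to 22807 CPM. The list of glutamatergic neurons (8 genes) had a range of 2354 to 2708 CPM under AM6545 and 2276 to 2587 CPM under vehicle, and neither AM6545 E nor vehicle C was at its ends. No gene of these lists was at 0 in all samples, and none passed the adjusted threshold. Vehicle A, highest for oligodendrocytes, was the second lowest sample for Grin1, so the order did not match for Grin1 beyond the end samples. For Grin2a and Grin2b the order was closer. Vehicle A and D, at 22807 and 18216 CPM in the oligodendrocyte list, held 209 and 197 CPM of Grin2a and 206 and 217 CPM of Grin2b. AM6545 B departed from it, being second lowest in that list and at 199 CPM for Grin2b. The 6 CA1 markers came closer to Grin1, with sums of 599, 599, 570 and 641 CPM in AM6545 A, B, C and E and 493, 611, 525, 514 and 559 CPM in vehicle A to E. As for Grin1, AM6545 E was highest, and the vehicle samples other than B lay below every treated sample. The part of glial or CA1 RNA in the subunit levels was not tested.

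Grin2c (ENSMUSG00000020734.14; chr11:115249169-115267243, minus strand) encodes GluN2C, best known from cerebellar granule cells and also made by astrocytes. The AM6545 samples A, B, C and E held 14.7, 12.8, 11.6 and 15.2 CPM. Vehicle A to E held 9.13, 12.96, 11.2, 10.9 and 12.6 CPM. AM6545 A and E were above all vehicle samples, and vehicle A was the lowest of the 9. The means were 13.6 ± 1.67 CPM (SD, n = 4) and 11.3 ± 1.52 CPM (SD, n = 5), 0.25 apart in log2 terms (SE 0.13, adjusted p = 0.653 by edgeR's test). The astrocyte list of 10 genes ran from 2647 to 3391 CPM under AM6545 and from 2431 to 3617 CPM under vehicle, and Aqp4 from 101 to 170 CPM and from 106 to 154 CPM. Vehicle A, lowest for Grin2c, had the highest astrocyte sum.

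Grin2d (ENSMUSG00000002771.13; chr7:45831883-45878378, minus strand) encodes GluN2D, with the slowest decay of the family. It was at 8.01, 8.18, 7.04 and 7.15 CPM in AM6545 A, B, C and E. In vehicle A to E it was 6.53, 5.93, 7.46, 6.51 and 6.10 CPM. Apart from vehicle C, which lay above AM6545 C and E, the vehicle samples were below the treated ones. The means were 7.59 ± 0.582 CPM (SD, n = 4) and 6.51 ± 0.595 CPM (SD, n = 5), 0.22 apart in log2 terms (SE 0.12, adjusted p = 0.653 by edgeR's test). These levels rested on 113 to 193 counts per sample, the fewest of the members. Grin2c and Grin2d are the most GC-rich members, at 61.6% and 65.1%. With length and GC trends removed their log2 fold changes were 0.10 and 0.03, against 0.25 and 0.22 in the main fit. With the length trend alone removed they were 0.22 and 0.20. The cause of the shrinkage was not tested.

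Grin3a (ENSMUSG00000039579.16, chr4:49661611-49845744, minus strand), which encodes GluN3A, was at 23.2, 27.6, 28.2 and 32.3 CPM in AM6545 A, B, C and E. The vehicle samples A to E held 23.9, 26.2, 27.1, 24.5 and 23.0 CPM. AM6545 A lay inside the vehicle range and the other 3 treated samples above it. The means of 27.8 ± 3.72 CPM (SD, n = 4) and 24.9 ± 1.67 CPM (SD, n = 5) gave a fitted log2 difference of 0.16 (SE 0.11, adjusted p = 0.688 by edgeR's test), which was 0.08 without AM6545 E. Grin3a and Grin2d are often found in interneurons, whose markers are given beside them, with their part in these levels not tested. The 12 interneuron genes summed to 957 to 1137 CPM under AM6545 and 1017 to 1172 CPM under vehicle, with AM6545 E the lowest of the 9 samples. Gad1 ran from 325 to 450 CPM against 290 to 378 CPM, Sst from 166 to 192 CPM against 175 to 251 CPM, and Pvalb from 14.9 to 20.3 CPM against 16.02 to 29.3 CPM.

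The seventh subunit gene, Grin3b, which encodes GluN3B of motor neurons, had 0 to 4 counts per sample and did not pass the filter on low counts. A value of 3 counts corresponds to between 0.110 and 0.170 CPM of the unscaled library, so Grin3b was at or near the limit of detection at this depth.

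Levels of different subunits can be compared only per length, and here the order depended on the transcript length chosen. Per kilobase of the median protein-coding transcript, vehicle levels were 116 ± 18.1 CPM for Grin2b, 36.8 ± 6.33 for Grin1, 36.3 ± 4.06 for Grin2a, 3.34 ± 0.224 for Grin3a, 2.47 ± 0.330 for Grin2c and 1.24 ± 0.114 for Grin2d (SD, n = 5). Grin1 and Grin2a overlapped in their ranges. Under AM6545 the levels were 125.8 ± 15.4, 48.8 ± 6.09, 40.6 ± 7.53, 3.73 ± 0.499, 2.96 ± 0.364 and 1.45 ± 0.111 in the same order (SD, n = 4), and the ranges of Grin3a and Grin2c overlapped there as well. The high place of Grin2b rests on short annotated fragments, since its protein-coding transcripts have a median length of 1582 bases and the longest has 24060. With the longest transcript in place of the median, Grin1 came first in vehicle samples at 34.6 ± 5.96 CPM per kilobase, Grin2a followed at 12.5 ± 1.39 and Grin2b at 7.62 ± 1.19 (SD, n = 5). The lower 3 kept their order under both lengths, all below the upper 3. Which isoforms were present was not analysed here.

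Subunit composition was compared as ratios of counts within a sample, which do not depend on library scaling. The ratio of Grin2b to Grin2a transcripts is of interest because the GluN2B to GluN2A balance of hippocampal synapses changes with maturation and experience. Its log2 value was 0.02, 0.15, -0.16 and -0.11 in AM6545 A, B, C and E. In vehicle A to E it was -0.02, 0.00, -0.12, 0.14 and 0.00. Both groups were scattered around 0 with no separation: the means were -0.02 ± 0.14 (SD, n = 4) and 0.00 ± 0.09 (SD, n = 5), a difference of -0.02 (two-sided exact permutation p = 0.857). Of the reads assigned to the 4 GluN2 genes, which are not scaled by length, Grin2a took 47.9% ± 2.65 and 47.6% ± 1.29 in the AM6545 and vehicle groups (SD, n = 4 and 5), Grin2b 47.1% ± 2.04 and 47.6% ± 1.84, Grin2c 3.25% ± 0.630 and 3.01% ± 0.646, and Grin2d 1.83% ± 0.380 and 1.73% ± 0.343.

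The mean log2 ratio of every other subunit to Grin1 was lower under AM6545, and no such difference passed its test. The Grin3a to Grin1 ratio had a log2 value of -2.98, -2.63, -2.87 and -2.81 in AM6545 A, B, C and E. Vehicle A to E had -2.46, -2.87, -2.23, -2.57 and -2.64. Vehicle B lay among the treated samples and AM6545 B among the vehicle samples. The difference in means was -0.27, with the lowest p of the 15 pairs of members (two-sided exact permutation p = 0.111, Benjamini-Hochberg adjusted p = 0.873). For Grin2a over Grin1 the difference was -0.27 (exact permutation p = 0.143) and for Grin2b over Grin1 -0.29 (exact permutation p = 0.175). It was -0.16 for Grin2c over Grin1 (exact permutation p = 0.254) and -0.19 for Grin2d over Grin1 (exact permutation p = 0.429). None of the 15 pairs had an exact p under 0.05, where the smallest that 4 against 5 samples allow is 0.0159. The differences in these 5 ratios share Grin1, so they are not independent of each other.

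Grin2a and Grin2b varied together from sample to sample, and of the 15 pairs of members theirs was the only correlation of log2 CPM past the threshold after adjustment. Over the 9 samples, Pearson's r of log2 CPM was 0.87 (exact permutation p = 0.00259, Benjamini-Hochberg adjusted p = 0.0389). Spearman's rho was 0.93 (exact permutation p = 0.000750, adjusted p = 0.0112). Without AM6545 E and C, the samples farthest from the median of Grin2a, r was 0.91 (exact permutation p = 0.00357), and r of the deviations from the group means was 0.85. With the group means removed the pair no longer passed: the adjusted permutation p was 0.0544 for r and 0.0620 for rho. Those p-values are only approximate, because deviations sum to 0 within each group and cannot be permuted freely. Vehicle C and AM6545 E marked the low and high ends, and vehicle A and D lay with the higher AM6545 samples. Vehicle A and D and AM6545 C and E also had the highest sums of the oligodendrocyte list, and vehicle C the lowest. The part of glial RNA in the correlation was not tested. The GC content of the transcripts was 50.8% for Grin2a and 48.2% for Grin2b, and the part of GC content in the correlation was not tested either.

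**Figure D2:**
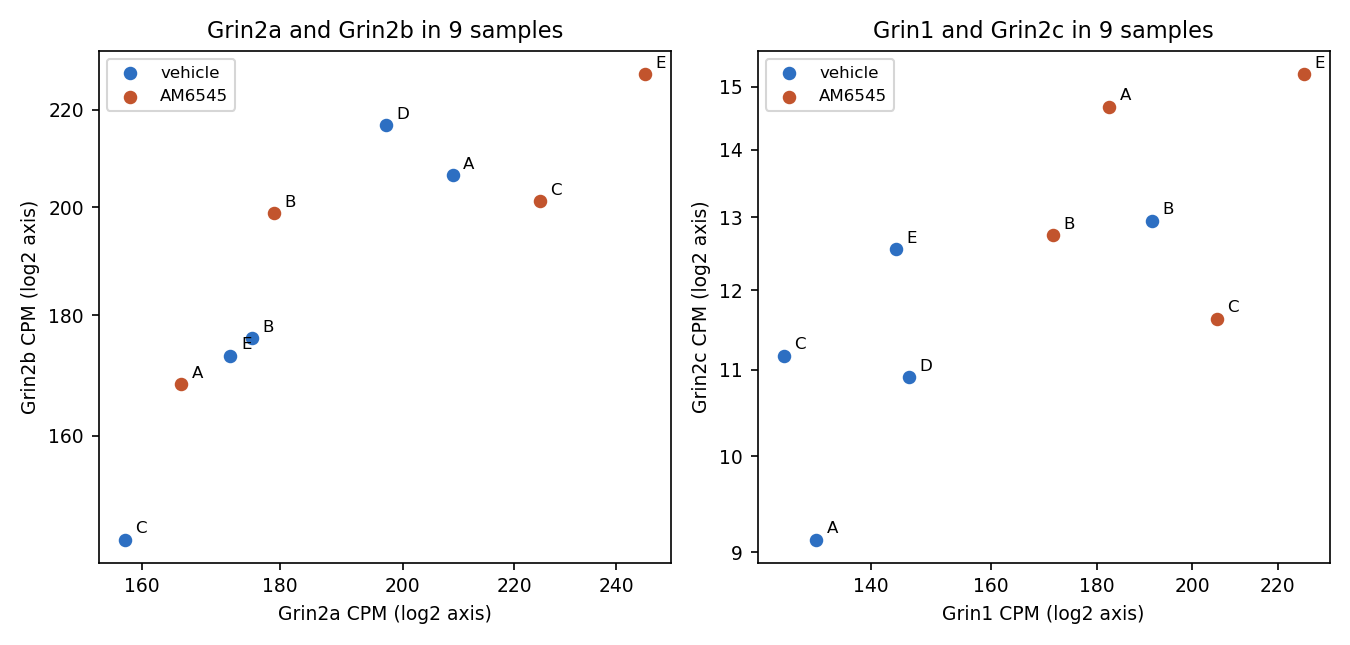
Level of Grin2b against Grin2a (left) and of Grin2c against Grin1 (right) in the 9 samples, in TMM-scaled CPM with log2 axes; points are samples, coloured by group and marked with the replicate letter. In the left panel the samples follow a line from vehicle C to AM6545 E across both groups (r = 0.87), and in the right panel they are more scattered (r = 0.73).

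Grin1 and Grin2c had the second highest correlation, with r = 0.73 (exact permutation p = 0.0245, adjusted p = 0.184) and rho = 0.72 (exact permutation p = 0.0369, adjusted p = 0.276), which did not pass the adjustment. Without vehicle C and AM6545 E it was 0.62, and 0.52 of deviations from the group means. Grin1 did not pass with either of the main GluN2 partners. Its r was 0.52 with Grin2a (exact permutation p = 0.150) and 0.42 with Grin2b (exact permutation p = 0.261), and without vehicle C and AM6545 E these were -0.03 and -0.32, so both rest on those samples. Of the 15 correlations, 11 were positive. Grin1 and Grin2d tended to opposite ends within the groups. Their r was 0.16 over all samples and -0.81 of deviations from the group means (permutation p = 0.00725, adjusted p = 0.0544), with rho = -0.90 (permutation p = 0.00203, adjusted p = 0.0304). As above, p-values of deviations are only approximate, so these values are a description and do not establish an opposite pattern. Of the treated samples, AM6545 C and E were low for Grin2d and high for Grin1.

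The genes whose levels followed the abundant subunits most closely, of 9478 genes with a mean of at least 10 CPM, differed between the subunits. For Grin1 they were Chrm1, the muscarinic M1 receptor (r = 0.98), the adhesion receptor Adgrg1 (r = 0.98) and the ephrin receptor Epha6 (r = 0.98). For Grin2a they were Shisa6, an auxiliary protein of AMPA receptors (r = 0.97), and the calcium channel genes Cacna1c (r = 0.97) and Cacna1b (r = 0.97). For Grin2b they were Mllt6 (r = 0.97), the autophagy gene Atg2b (r = 0.97) and Sumf2 (r = 0.97). These are the highest of many values over 9 samples and stand as a description, with no test. Chrm1 had a log2 fold change of 0.25 (SE 0.12), Adgrg1 of 0.34 (SE 0.11) and Epha6 of 0.26 (SE 0.10), each with an edgeR quasi-likelihood adjusted p of 0.653.

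The other ionotropic glutamate receptor genes had fitted differences mostly of the same sign. All 4 AMPA receptor subunits, which carry the fast excitatory current, had a log2 fold change above 0, with a median of 0.15, and none passed the adjusted threshold. The smallest p was that of Gria1, at 0.18 (SE 0.12, edgeR quasi-likelihood adjusted p = 0.677), with 632, 678, 807 and 797 CPM in AM6545 A, B, C and E and 571 to 720 CPM in the vehicle samples. Of the 5 kainate receptor subunits 4 were above 0, with a median of 0.13. Over all genes tested 48.2% were above 0, and the median was -0.01. Grik4 had the smallest p, with 40.7, 34.7, 47.9 and 41.3 CPM in AM6545 A, B, C and E and 27.4 to 39.7 CPM under vehicle, a log2 fold change of 0.27 (SE 0.12, adjusted p = 0.653 by the same test). The summed CPM of the 6 NMDA receptor genes was 0.240 ± 0.0166 times that of the AMPA receptor genes under AM6545 and 0.229 ± 0.0128 times under vehicle (SD, n = 4 and 5). Against the kainate receptor genes it was 4.26 ± 0.280 and 4.07 ± 0.340 times. The group ranges of both ratios overlapped. The sums are not scaled by length, so the ratios serve to compare the groups and do not give relative abundance of the families.

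**Figure D3:**
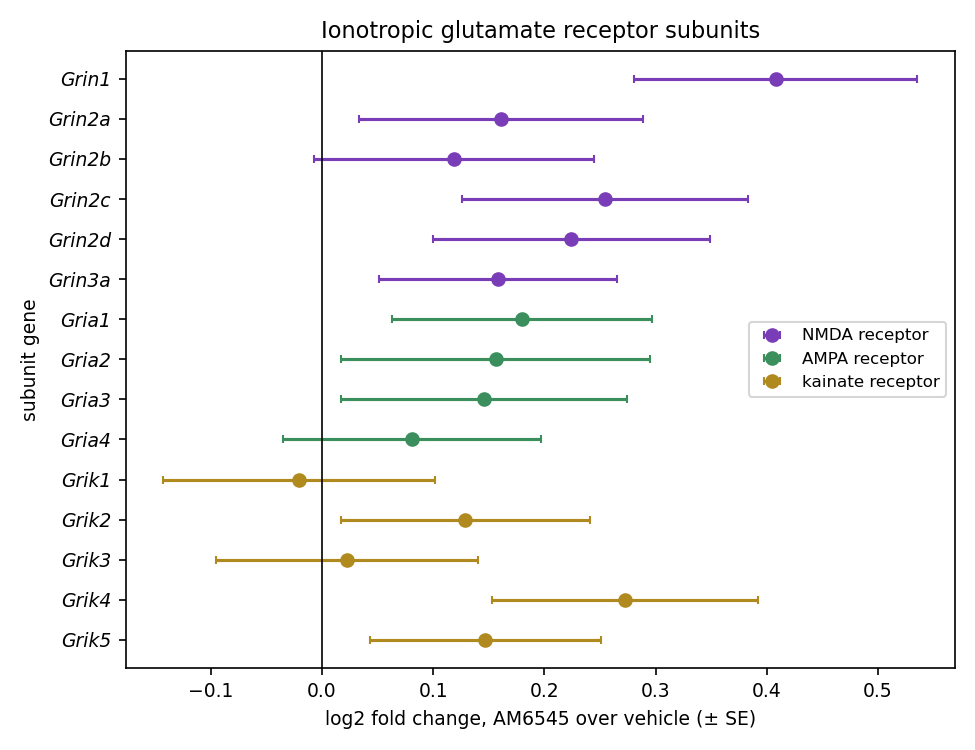
Log2 fold change (AM6545 over vehicle) of each ionotropic glutamate receptor subunit gene tested, from the edgeR fit; points are fitted values, bars are ± 1 SE, and colours mark the receptor family. Grin1 stands highest at 0.41, Grik1 is the one gene below 0 at -0.02, and none passed the adjusted threshold.

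Scaffold and trafficking genes, which hold NMDA receptors at the postsynaptic density and carry them there, had 17 of 22 members above 0, a median log2 fold change of 0.07 and 0 past the adjusted threshold. At an unadjusted p under 0.05, 2 were higher under AM6545. Over all genes 48.2% were above 0 and 3.03% were called higher. Kif17, the kinesin that transports GluN2B vesicles along dendritic microtubules, had the smallest p. It was at 13.9, 16.3, 13.5 and 11.5 CPM in AM6545 A, B, C and E and at 7.97, 12.3, 13.2, 10.3 and 10.5 CPM in vehicle A to E, 0.34 higher in the fit on the log2 scale (SE 0.15, adjusted p = 0.653 by edgeR's test). AM6545 E, the highest sample for Grin2b, was the lowest treated sample for Kif17. The 6 subunits summed to 27.4 ± 2.74 times the CPM of Dlg4, which encodes the scaffold PSD-95, under AM6545 and 22.7 ± 3.81 times under vehicle (SD, n = 4 and 5), with overlapping ranges. This ratio is not scaled by length either and gives no relative abundance.

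Among the genes that supply and remove the co-agonists glycine and D-serine, 6 of 11 tested were above 0, beside 48.2% of all genes, with a median of 0.03. Slc6a9 had the smallest p. It encodes the glycine transporter GlyT1, which keeps synaptic glycine low and so limits occupancy of the co-agonist site of GluN1. Its level was 24.7, 24.7, 26.4 and 34.1 CPM in AM6545 A, B, C and E. Vehicle A to E held 20.5, 24.6, 18.6, 19.7 and 20.6 CPM. Every treated sample was above every vehicle sample, although vehicle B was only just below AM6545 A and B. Over all genes 1.45% had group ranges that did not overlap, and Slc6a9 is named because its p was the smallest of the list. In the fit the log2 difference was 0.40 (SE 0.12, adjusted p = 0.653 by edgeR's test; unadjusted p = 0.00512), and it was 0.44 with the length trend removed. Of the 3 glutamate transporters, Slc1a1, the neuronal carrier, had the smallest p, with a log2 fold change of 0.22 and an adjusted p of 0.669 by edgeR's test, and the list median was -0.06.

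Kinases and phosphatases that act on NMDA receptors had 13 of 20 members above 0, with a median of 0.06, and 3 at an unadjusted p under 0.05, all higher under AM6545, beside 48.2% and 3.03% of all genes. In the list of calcium-dependent downstream signalling 6 of 12 were above 0, with a median of -0.02. Its smallest p was that of Rasgrf1, a calcium-activated exchange factor for Ras that binds GluN2B. The gene was at 454, 530, 459 and 367 CPM in AM6545 A, B, C and E and at 262 to 403 CPM under vehicle, a log2 fold change of 0.35 (SE 0.14, adjusted p = 0.653 by edgeR's test). AM6545 B was the highest sample for Rasgrf1 and AM6545 E the lowest treated one, the reverse of their places for Grin1.

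Across the lists beside the members, 0 of 77 genes tested passed the adjusted threshold. At an unadjusted p under 0.05, 8 were higher and 0 lower under AM6545, and 51 had a log2 fold change above 0 and 26 below. Over all genes 7.21% were called in either direction and 3.03% were called higher, and 48.2% had a log2 fold change above 0.

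**Figure D4:**
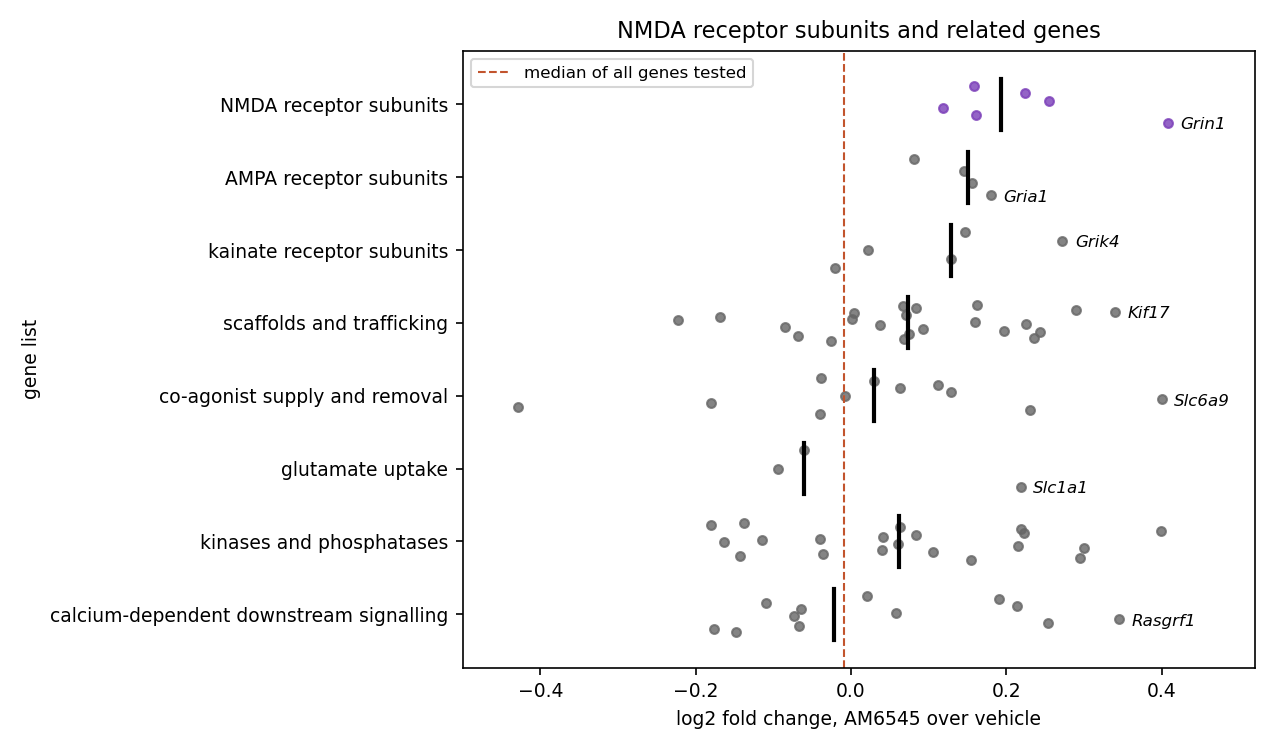
Log2 fold change (AM6545 over vehicle) of the NMDA receptor subunits and of 7 lists of related genes; each point is a gene, the black bar is the list median, the dashed line is the median of all genes tested, and the gene with the smallest p is named for each list except the kinases and phosphatases. Medians run from 0.19 for the NMDA receptor subunits to -0.06 for the glutamate transporters.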

How the data were processed

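RNA of hippocampal synaptoneurosomes was measured in 9 samples with the SMARTer Ultra Low Input kit and a NovaSeq sequencer, as the labels' protocols state. The authors deposited 1 table of estimated counts per gene, not scaled between samples. The submitters' processing notes name Salmon 1.3, DESeq2 1.30, GRCm39 and mm10 with no role for each, so which build was used is open and coordinates here come from GENCODE M21 (GRCm38). Symbols were matched for 22155 of 22255 identifiers. Replicate letters are those of the sample titles. Between any pair of samples the counts differed by more than sampling noise (chi-square over its degrees of freedom, 10.0 to 90.0 in 36 pairs), so all were kept.

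Estimated counts were rounded to whole numbers, filtered by edgeR's filterByExpr, scaled by TMM and tested with edgeR's quasi-likelihood F-test (edgeR 4.0.16, R 4.3.3), with no covariates; the SE of a log2 fold change is its size over the root of the F statistic. Ratios used a prior count of 0.5, and correlations log2 CPM with a prior count of 2. Both were tested by exact permutation (scipy 1.17.1), which is only approximate for deviations from group means. Alternatives were other size factors and filters, DESeq2 1.42.0, limma-voom 3.58.1, a block for the replicate letter, samples left out, and length and GC trends (lowess, span 0.3) removed. The scripts were tested on simulated data. The members, lists, length alternative and tests were chosen with earlier results of these data known. Named genes were the 6 members, Grin3b, the gene with the smallest p in each list (that of the kinases and phosphatases is not reported here), the 3 genes most alike Grin1, Grin2a and Grin2b, and defining cell markers; Dlg4, Fmr1 and the genes overlapping members were named besides. Further marker lists covered dentate granule cells, CA1, oligodendrocyte precursors, endothelium, choroid plexus, cerebellum, thalamus and isocortex. Of the cerebellar list, Neurod1 and Calb2 were named after their counts were seen. Depth limits precision most for Grin2d, and p-values cover the spread between samples.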

Additional observations from a re-analysis of the deposited data

Results flagged for a closer look

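The log2 ratio of Grin3a to Grin2d counts in vehicle B was 2.14, apart from the other 4 vehicle samples, which lay between 1.85 and 1.91. Its gap to the nearest of them was 0.797 of the group's whole range. The sample had the lowest Grin2d level of the 9, at 5.93 CPM. Of 42 groups of values examined in this way 1 had such a sample, where chance gives 2.1.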

How the results depend on the processing

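The log2 fold change of each of the 6 members stayed above 0 in all 19 alternative settings. No gene passed the adjusted threshold in any of them (range 0 to 1 with a sample left out) except Gm14308 without AM6545 A, named here after its values were seen. The 1047 genes at an unadjusted p under 0.05 became 1823 with limma-voom sample weights, 655 with length and GC trends removed (chosen after seeing the data), and 496 (without vehicle A) to 1848 (without AM6545 E) with a sample left out. Whether the letters pair samples is not stated. Same-letter deviations correlated at -0.02, 0.04, 0.34 and -0.02 for A, B, C and E, and only C was closest to its own letter. Such correlations cannot exclude a pairing. With the replicate block 759 genes had an unadjusted p under 0.05, and Grin1 was at 0.42. The Grin2b to Grin2a log2 difference turned from -0.02 to 0.00980 there and did not pass the exact sign-flip test after adjustment. With a sample left out that difference ran from -0.0824 to 0.0214. Correlations that changed sign without the samples farthest from the median were Grin1 with Grin2a (-0.025) and Grin2b (-0.32), Grin3a with Grin2a (-0.25) and Grin2c (-0.42), and Grin2b with Grin2d (0.51). Of deviations from group means, Grin2d turned to -0.81 with Grin1, -0.22 with Grin2c and -0.14 with Grin3a. With the longest transcript the share among the members per length was 58.0% for Grin1 and 11.7% for Grin2b. The causes were not tested. The downstream list's median was 0.003 with the length trend removed.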
